A study of Mus musculus with 2 samples.

Results

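Mgp, Ogn, Dcn, Lum, Spp1 and Cp encode 6 secreted proteins, most of them matrix proteins of the meninges, the fibroblast-rich membranes that cover the brain. They were taken as the probes whose symbol in the platform annotation is one of these names, which gave 6 probes, 1 per gene, of 23473 on the array and 6 genes of 16446 symbols. All 6 were measured, meaning that they lay above the blank spots by more than 2 SD in both channels of both arrays, as did 18664 probes in all. The genes were chosen for their signals and log2 ratios on these same arrays, so the values below are a description and not a test.

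Hippocampal RNA of AtrxdE2 mice, of AtrxdE2 mice treated with TMPyP4 and of wild-type mice was hybridised to 2 two-colour oligonucleotide arrays. AtrxdE2 mice carry the Atrx allele AtrxΔE2 of the chromatin remodeller gene Atrx, and TMPyP4 is a porphyrin that binds G-quadruplex DNA. TMPyP4 was given by intraperitoneal injection (30 mg/kg, 2 injections weekly) starting on postnatal day 30 and ending on day 90, and each RNA was a pool of 5 mice. The labels state neither the sex of the mice nor their age at sampling. One array carried AtrxdE2 (Cy3) with wild type (Cy5), the other AtrxdE2+TMPyP4 (Cy3) with wild type (Cy5). There was 1 pool per group and no dye swap, so no value has a replicate check, no p-value is given, and dye and genotype cannot be told apart. Vehicle-treated animals and treated wild-type animals are not among the groups. Wild type was measured on both arrays, though the labels do not say whether both carried the same pool.

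Decorin (Dcn), lumican (Lum) and osteoglycin (Ogn) are small leucine-rich proteoglycans, secreted proteins that bind collagen fibrils and set their thickness and spacing. Matrix Gla protein (Mgp) carries vitamin K-dependent carboxyglutamate residues, inhibits calcification and binds bone morphogenetic proteins. Osteopontin (Spp1) is a phosphoprotein of the SIBLING family that binds integrins and CD44, and ceruloplasmin (Cp) is a copper-carrying ferroxidase that helps cells export iron. In the brain, meningeal and perivascular fibroblasts are known for the proteoglycans and Mgp, while ceruloplasmin is also made by astrocytes and choroid plexus, and osteopontin by microglia and macrophages in injury.

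Promoter sequences are shown as a description, and no link between them and the values on the arrays was tested. The RefSeq promoter table (GRCm38.p6, 250 bases before to 50 after each start) matched 3 of the 6 genes: Ogn, Spp1 and Cp. Dcn, Lum and Mgp are not shown. Capitals mark the motif TATAAA, the motif TTTAAA and the motif CCAAT on either strand, where matches may overlap, and the lines give Ogn (chr13:49607765-49608064, plus strand), Spp1 (chr5:104434861-104435160, plus strand) and Cp (chr3:19956999-19957298, plus strand).
Ogn: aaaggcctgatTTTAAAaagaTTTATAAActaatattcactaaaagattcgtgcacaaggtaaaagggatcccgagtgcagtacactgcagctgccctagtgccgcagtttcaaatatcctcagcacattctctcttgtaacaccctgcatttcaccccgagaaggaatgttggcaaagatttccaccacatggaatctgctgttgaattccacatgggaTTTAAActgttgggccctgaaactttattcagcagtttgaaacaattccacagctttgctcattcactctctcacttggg
Spp1: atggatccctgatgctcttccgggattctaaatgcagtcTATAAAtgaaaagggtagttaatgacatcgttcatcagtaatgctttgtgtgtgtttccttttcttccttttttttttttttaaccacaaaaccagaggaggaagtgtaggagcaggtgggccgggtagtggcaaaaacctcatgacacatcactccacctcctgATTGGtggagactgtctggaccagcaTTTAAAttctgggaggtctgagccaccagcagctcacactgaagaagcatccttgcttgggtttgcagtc
Cp: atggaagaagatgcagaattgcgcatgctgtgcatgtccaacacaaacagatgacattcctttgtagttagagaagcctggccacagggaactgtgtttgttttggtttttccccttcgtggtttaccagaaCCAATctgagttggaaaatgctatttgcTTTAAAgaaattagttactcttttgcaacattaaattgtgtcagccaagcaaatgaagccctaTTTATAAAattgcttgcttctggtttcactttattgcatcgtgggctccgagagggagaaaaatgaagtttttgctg

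The Cp start shown is the downstream of 2, and the Spp1 start the upstream of 2. The motifs marked in capitals had 0 matches in the window of the other listed start of Cp and of Spp1. For these genes the matches given below therefore hold for the start shown only. All 3 sequences were poor in CG dinucleotides, with 4 in Ogn, 3 in Spp1 and 4 in Cp, against a median of 7 over 32817 promoters. GC content was 42.3% in Ogn and 45.3% in Spp1, against a median of 52.7% over all promoters. TATAAA lay 27 and 25 bases before the Cp start, overlapping on opposite strands, and TTTAAA lay 30 bases before the Ogn start and 20 bases before the Spp1 start. TATAAA occurs in 13.6% of all promoters of this length, TTTAAA in 13.2% and CCAAT in 37.4%. A run of 4 groups of at least 3 G, spaced by 1 to 7 bases on either strand, is a textbook G-quadruplex pattern and occurs in 18.6% of promoters. It had 0 matches in the windows of Ogn, Spp1 and Cp, including the other listed start of Spp1 and of Cp. These are matches of letters in short windows of 3 of the 6 genes. They say nothing of binding by a factor or by TMPyP4.

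The signal above the blank spots, before any normalization, is given for each gene in scanner units. A probe's Cy3 channel was usually brighter than its Cy5 channel: the median ratio of the signals was 1.55 for AtrxdE2 over wild type and 2.24 for AtrxdE2+TMPyP4 over wild type, and each gene's ratio reads against these. The log2 ratios that follow the signals are normalized within each array (normexp background correction with an offset of 50, then loess), which draws the ratios of dim probes towards 0. Ratios from the authors' deposited table, whose normalization the labels do not describe, stand beside them. Among 13596 measured genes the SD of the normalized log2 ratio was 0.19 for AtrxdE2 and 0.20 for AtrxdE2+TMPyP4, both over wild type. Within an array, 24 repeated spots of each of 2 bright control sequences had an SD of the log2 ratio between 0.0865 and 0.113.

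Ogn had its highest signal and log2 ratio in the treated pool. Ogn had a signal of 59.9 in AtrxdE2, against 17.1 in wild type, and of 204.3 in AtrxdE2+TMPyP4, against 16.3 in wild type. The treated pool was the brightest channel, AtrxdE2 lay between, and both wild-type channels were close to each other and dim, although above the blank spots, whose SD was 1.23 and 0.92 there. The raw ratio over wild type was thus 12.6 in the treated pool and 3.51 in AtrxdE2. The normalized log2 ratio was 0.43 for AtrxdE2 and 1.23 for AtrxdE2+TMPyP4, and in the authors' deposited table it was 1.16 and 2.48. Ogn ranked 14 of 13596 genes in the treated pool over wild type and 232 in AtrxdE2 over wild type, and the authors' deposited table placed it at ranks 11 and 51. Among the 500 genes of most similar signal the SD of the log2 ratio was 0.16 in both comparisons.

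Dcn had a signal of 177.4 in AtrxdE2, against 99.5 in wild type, and of 271.0 in AtrxdE2+TMPyP4, against 60.8 in wild type. The treated pool was again the brightest channel, but part of its ratio came from wild type, whose signal on that array was 0.611 times that on the other, against 0.85 for the median probe. The log2 ratio was 0.16 in AtrxdE2, within the SD of 0.21 among genes of like signal, and 0.71 in AtrxdE2+TMPyP4 (rank 60), with 0.18 and 0.99 (rank 209) in the authors' deposited table. With the mean of both wild-type channels as the reference, chosen after seeing the data, the values for Dcn were 0.31 and 0.56.

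Lum had the smallest log2 ratio of the 6 in the treated pool. Its signal was 36.3 in AtrxdE2, against 19.6 in wild type, and 79.4 in AtrxdE2+TMPyP4, against 22.4 in wild type. The AtrxdE2 log2 ratio of 0.082 lay within the SD of genes of like signal (0.14) and turned to -0.0079 with median centring in place of loess. In AtrxdE2+TMPyP4 it was 0.30 (0.66 and rank 540 in the authors' deposited table), at rank 909 of 13596 genes, and it was 0.13 with median centring. Lum lies next to Dcn on chromosome 10, with no other gene between them among the measured ones, and their ratios were both higher in the treated pool than in AtrxdE2.

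Mgp was high on both arrays. Its signal was 942.7 in AtrxdE2, against 271.7 in wild type, and 1072.6 in AtrxdE2+TMPyP4, against 182.0 in wild type. Both mutant channels were close to each other and well above both wild-type channels. The log2 ratio was 1.02 in AtrxdE2 (rank 3) and 1.21 in AtrxdE2+TMPyP4 (rank 15), with 1.14 and 1.39 in the authors' deposited table and an SD of 0.22 and 0.23 among genes of like signal. By the authors' deposited table Mgp ranked 55 in AtrxdE2 and 73 in AtrxdE2+TMPyP4. Wild-type Mgp was 0.31 log2 units lower on the treated array than on the other after quantile normalization of the Cy5 channels, against an SD of 0.27 over all probes. That shift is larger than the difference of 0.18 between the log2 ratios.

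Cp showed a similar pair of values. It had a signal of 191.9 in AtrxdE2, against 42.3 in wild type, and of 238.1 in AtrxdE2+TMPyP4, against 30.5 in wild type. Both mutant signals lay above both wild-type signals, which held for every member before normalization, where Cy3 was usually the brighter channel. Wild type differed by only -0.095 log2 units between the arrays after quantile normalization of the Cy5 channels. The log2 ratio was 0.96 in AtrxdE2 (rank 6) and 1.08 in AtrxdE2+TMPyP4 (rank 18), and in the authors' deposited table it was 1.53 (rank 12) and 1.79 (rank 32). With the local background around each spot as the background level, the Cp ratios were 0.62 and 0.45.

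Spp1 had the only log2 ratio of the 6 below 0 in AtrxdE2 by the normalized ratio, and like Dcn and Lum it lay there within the spread of genes of like signal. Its signal was 219.5 in AtrxdE2, against 153.4 in wild type, and 954.7 in AtrxdE2+TMPyP4, against 188.9 in wild type. The treated pool was the brightest of the 4 channels, as it was for each of the 6 genes. Wild-type Spp1 was 0.38 log2 units higher on the treated array than on the other after quantile normalization, the largest such shift of the 6 genes and above the SD of 0.27 over all probes. The log2 ratio was -0.081 in AtrxdE2, where genes of like signal had an SD of 0.22, and it was 0.022 with median centring. In AtrxdE2+TMPyP4 it was 1.01 (rank 22). The authors' deposited table gave -0.13 in AtrxdE2 and 1.17 in AtrxdE2+TMPyP4, at rank 134 in the treated pool.

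**Figure D1:**
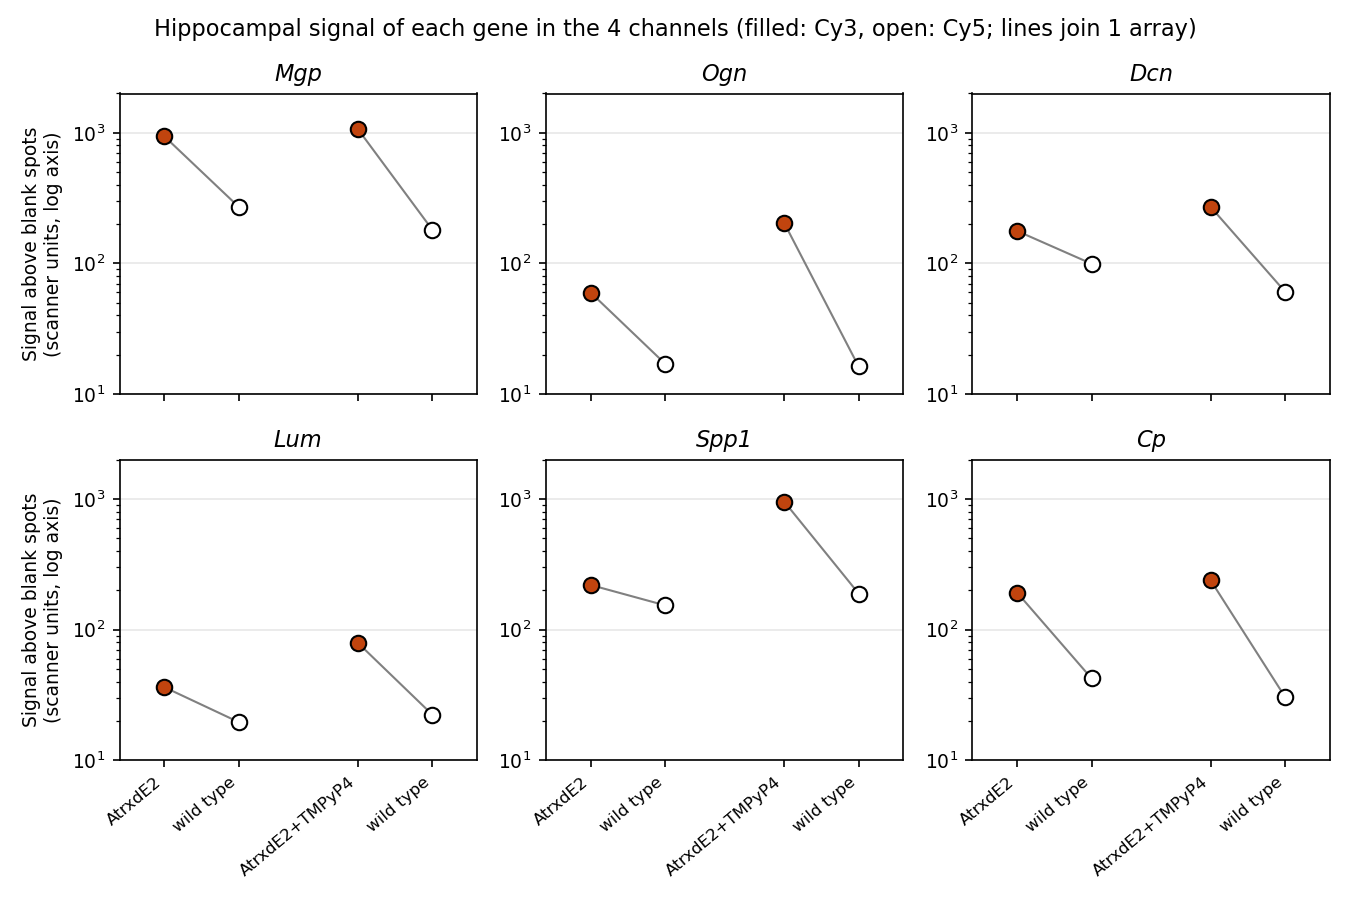
Signal above the blank spots of each gene, in scanner units on a log axis, for the 4 channels: AtrxdE2 and AtrxdE2+TMPyP4 (filled, Cy3), each joined by a line to wild type of the same array (open, Cy5). Each of the 6 genes has its highest point in the treated pool, where the median probe had 1.24 times its AtrxdE2 signal. Ogn and Spp1 had 3.41 and 4.35 times theirs (204.3 and 954.7). Mgp and Cp are about as bright in AtrxdE2 (942.7 and 191.9) as in AtrxdE2+TMPyP4 (1072.6 and 238.1).

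Counted by a rule of at least 2-fold on the normalized ratio, 1 of the 6 genes (Mgp) was higher in AtrxdE2 than in wild type, where 0.0643% of all measured probes were, and 4 of 6 (Mgp, Ogn, Spp1 and Cp) were higher in AtrxdE2+TMPyP4, where 0.145% were. No member was at least 2-fold lower in AtrxdE2, where 0.0214% of probes were. Since the genes were picked on these ratios, nothing is read from these shares. The count in AtrxdE2 was 3 (Mgp, Ogn and Cp) in the authors' deposited table, where 1.17% of probes passed, and with plain subtraction of the blank level, where 1.03% passed. It was 0 with the local background, a setting for which the share of all probes passing was not computed. In AtrxdE2+TMPyP4 the authors' deposited table gave 4, where 1.67% of probes passed, plain subtraction 5, where 1.38% passed, and the local background 1 (Mgp). The median of the 6 log2 ratios was 0.29 in AtrxdE2 and 1.04 in AtrxdE2+TMPyP4, against -0.003 and 0.0095 over all measured genes.

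**Figure D2:**
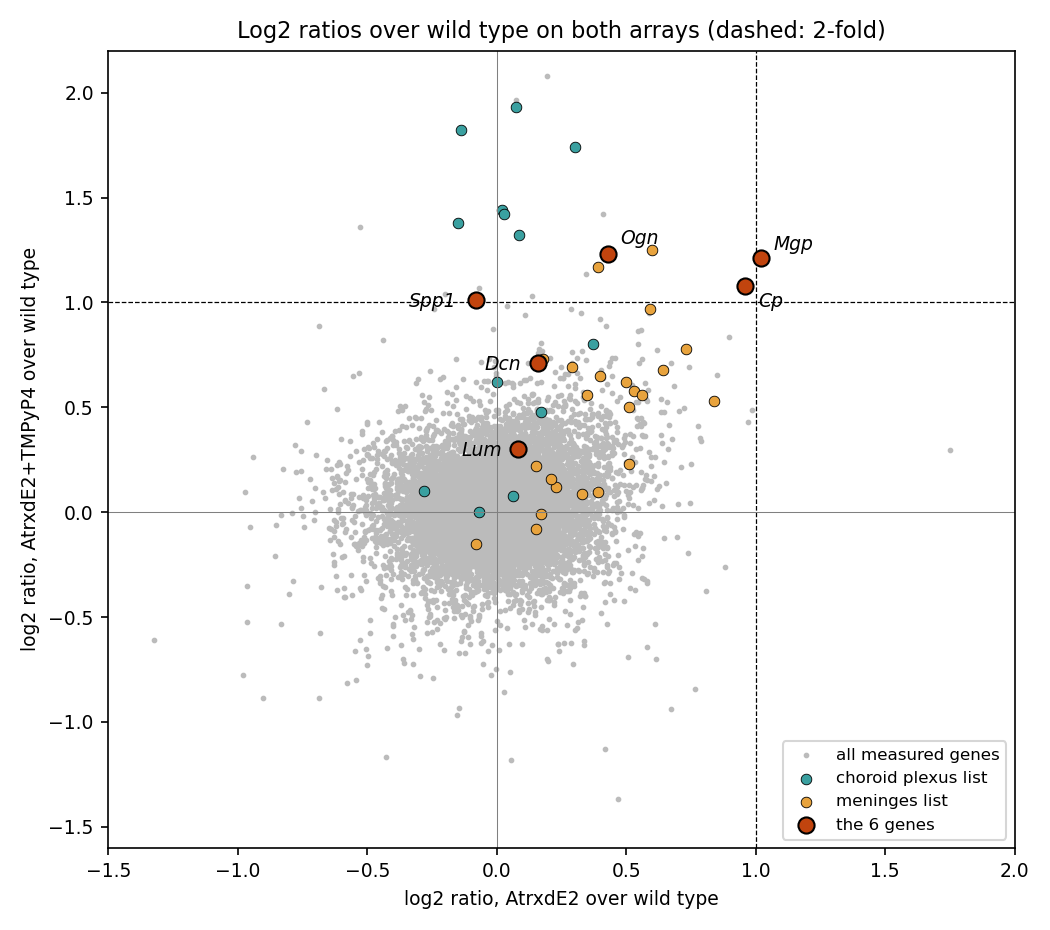
Normalized log2 ratio over wild type of each measured gene in AtrxdE2 (x axis) and AtrxdE2+TMPyP4 (y axis), with the 6 genes in red, the other meninges markers in orange, choroid plexus markers in teal and the 2-fold lines dashed. Mgp and Cp lie high on both axes, and Spp1 only on the y axis. Ttr, at 1.59 and 6.59, lies outside the frame.

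The third comparison sets the treated pool against untreated AtrxdE2, either by subtracting one log2 ratio over wild type from the other or directly between the Cy3 channels after quantile normalization. Spp1 had a difference of 1.09 (rank 24 of 13596), against 1.30 and rank 153 in the authors' deposited table, and a direct value of 1.55. It was the 1 member at least 2-fold higher, where 0.214% of all probes were by the difference and 1.22% by the direct comparison. With plain subtraction, where 2.98% of probes passed, Ogn passed as well. The raw Spp1 signal in the treated pool was 4.35 times that in AtrxdE2, against 1.24 for the median probe.

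Ogn had a difference of 0.80 (rank 75, and 1.32 and rank 140 in the authors' deposited table, where 3.09% of probes were at least 2-fold higher) and a direct value of 0.94. Its raw signal was 3.41 times that in AtrxdE2. The difference had an SD of 0.26 over all measured genes, and the direct value an SD of 0.41 over all probes. Spp1 and Ogn exceeded the SD in both ways of comparing. Since the genes were picked on these same arrays, nothing is read from that. The value depended on whether the wild-type channels entered it, also for Spp1 (1.09 and 1.55). Dcn had a difference of 0.55 and a direct value of 0.21, and Lum had 0.22 and 0.41. The direct value was thus below the SD of 0.41 for Dcn and about equal to it for Lum. Mgp had 0.18 and -0.15, and Cp 0.12 and -0.017, so no direction can be given for this pair.

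**Figure D3:**
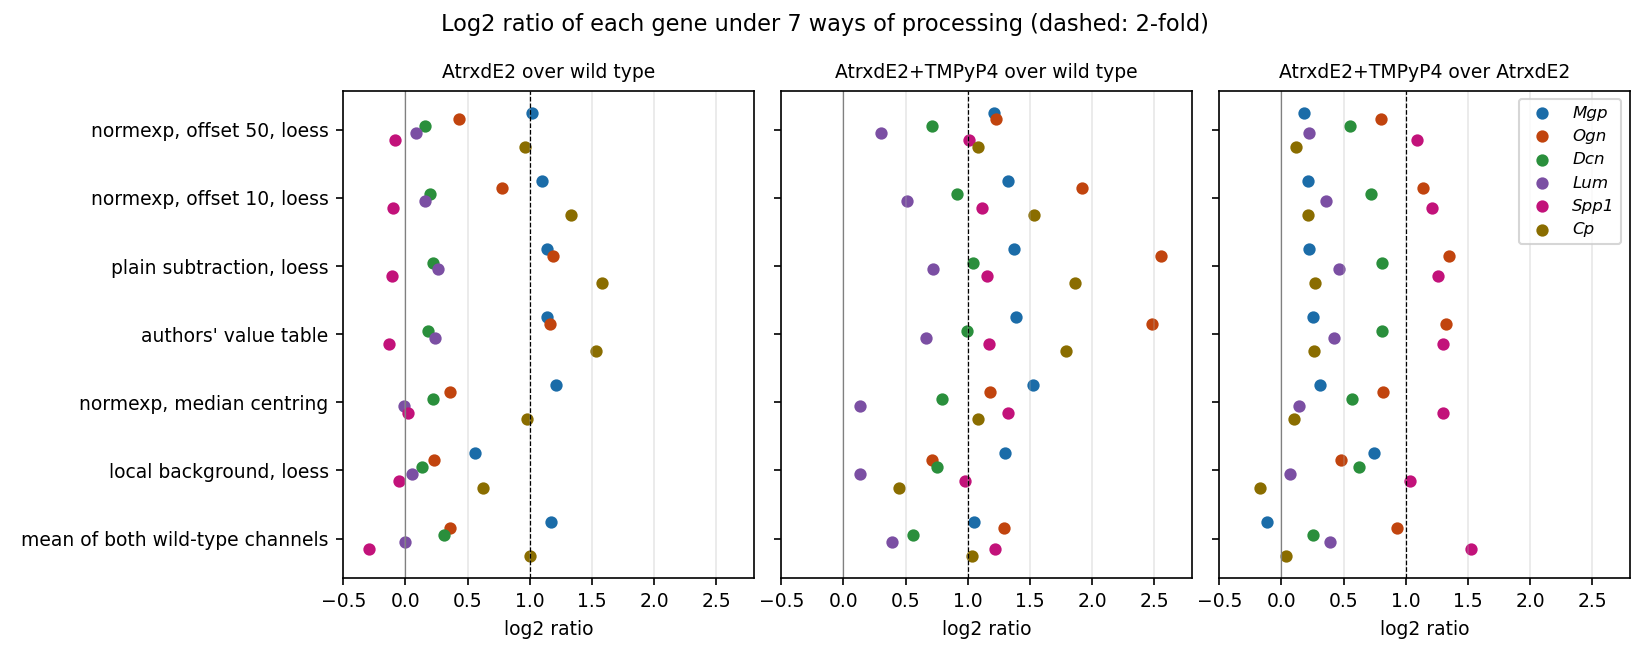
Log2 ratio of each gene (colours) under 7 ways of processing (rows) for AtrxdE2 over wild type, AtrxdE2+TMPyP4 over wild type and AtrxdE2+TMPyP4 over AtrxdE2, with the 2-fold line dashed. Ogn moves most with the background step, with AtrxdE2+TMPyP4 over wild type between 0.71 and 2.55, while Spp1 stays between 0.98 and 1.32 in the same comparison.

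The members were set against other genes of their families and pathways, in lists drawn up with earlier results of these data known. Of 16 small leucine-rich proteoglycan genes, 15 are on the array and 13 were measured. Besides Ogn, Dcn and Lum, the bone and cartilage proteoglycan genes Omd and Fmod were highest in AtrxdE2+TMPyP4, at 0.56 and 0.54. Omd had signals of 35.2 in AtrxdE2, against 7.63 in wild type, and of 58.5 in AtrxdE2+TMPyP4, against 4.76 in wild type. These wild-type signals are a few blank SDs, and in the authors' deposited table the Omd ratio in the treated pool was 2.45 and that of Fmod 1.56. Bgn, which encodes biglycan, the closest relative of decorin, had 0.51 in AtrxdE2 and 0.23 in AtrxdE2+TMPyP4. At the lower end, the corneal gene Kera had -0.15 in AtrxdE2 and -0.003 in AtrxdE2+TMPyP4, Optc had -0.11 in AtrxdE2, and Prelp had -0.0063 in AtrxdE2+TMPyP4. Without the 3 members, 7 of 10 measured genes were above 0 in AtrxdE2 and 8 of 10 in AtrxdE2+TMPyP4, with medians of 0.044 and 0.10, where 49.3% and 52.8% of all measured genes were above 0. None of these 10 was at least 2-fold higher in either pool by the normalized ratio.

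Position along the chromosome was compared by gene order in the RefSeq gene table. Ogn follows Ecm2, Aspn and Omd on chromosome 13, all from the same proteoglycan family. In AtrxdE2+TMPyP4 over wild type Ecm2 had 0.13, Aspn 0.24 and Omd 0.56, and on the other side of Ogn the nucleolar gene Nol8 had 0.011. In AtrxdE2 the values were 0.059 for Ecm2, -0.032 for Aspn, 0.35 for Omd and 0.15 for Nol8. Beyond Dcn and Lum, their relatives Kera and Epyc on chromosome 10 had -0.003 and 0.028 in AtrxdE2+TMPyP4. Beside Spp1 on chromosome 5, Pkd2 had 0.068 and the SIBLING gene Dmp1 0.22, while Ibsp and Mepe were not above background in all channels. The measured neighbours of Mgp on chromosome 6 lay between -0.14 and 0.10, and those of Cp on chromosome 3 between -0.21 and -0.069. Omd apart, no measured gene within 3 places of a member that is not itself a member exceeded 0.24 in the treated pool.

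Fibril-forming and fibril-associated collagens and their processing enzymes, the partners of the proteoglycans, included higher and lower genes in the treated pool. Of 22 measured, 15 were above 0 in AtrxdE2 (median 0.13) and 10 in AtrxdE2+TMPyP4 (median -0.00018). Of all measured genes 49.3% and 52.8% were above 0, so the count in the treated pool was near the share of all genes. Pcolce, which encodes an enhancer of procollagen C-terminal cleavage, had 0.97 in AtrxdE2+TMPyP4 and Col1a2 0.78, while Col6a1 had -1.13 and Col5a1 -0.29. In AtrxdE2 the highest were Col1a2 with 0.73 and Col3a1 with 0.64, and the lowest were the collagen hydroxylase genes P4ha2 with -0.11 and Plod1 with -0.084. Col6a1 was therefore at least 2-fold lower in the treated pool, as 0.0697% of probes were, whereas no gene of this list reached 2-fold higher by the normalized ratio. In the authors' deposited table Pcolce had 1.46 and Col3a1 1.13 in AtrxdE2+TMPyP4, and Col3a1 had 1.12 in AtrxdE2.

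Of 22 measured Gla protein, carboxylation and BMP genes other than Mgp, 11 were above 0 in AtrxdE2 and 8 in AtrxdE2+TMPyP4. The medians were 0.00084 and -0.033, and of all measured genes 49.3% and 52.8% were above 0. Bmp4 and Bmp7, ligands of the pathway that Mgp antagonises, had 0.67 and 0.65 in AtrxdE2+TMPyP4, and Bmp7 had 0.44 in AtrxdE2. At the lower end, the transducer gene Smad5 had -0.30 and the BMP target gene Id4 -0.23 in AtrxdE2+TMPyP4, and Id3 had -0.25 and Bmp2 -0.14 in AtrxdE2. Among 11 measured SIBLING, integrin and protease genes other than Spp1, 6 were above 0 in AtrxdE2 and 7 in AtrxdE2+TMPyP4. These counts read against the same shares of all genes. Itgb1, a subunit of several osteopontin receptors, had 0.23 in AtrxdE2 and 0.34 in AtrxdE2+TMPyP4. Itga8 had 0.24 and Itgav -0.13 in AtrxdE2, and Itgb3 had -0.20 and Itgb5 -0.037 in AtrxdE2+TMPyP4. The receptor gene Cd44 was not well above background in any channel.

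Copper and iron genes did not share the high values of Cp. Of 19 measured genes without Cp, 5 were above 0 in AtrxdE2 (median -0.11) and 8 in AtrxdE2+TMPyP4 (median -0.053). None was at least 2-fold higher by the normalized ratio. Of all measured genes 49.3% were above 0 in AtrxdE2 and 52.8% in AtrxdE2+TMPyP4. The ferritin heavy chain gene Fth1 had -0.58 in AtrxdE2 and -0.81 in AtrxdE2+TMPyP4, and the metallothionein gene Mt2 -0.50 and -0.69. Heph, which encodes the ferroxidase related to ceruloplasmin, had -0.049 and 0.17, and Slc40a1, the iron exporter gene with which ceruloplasmin works, -0.11 and 0.01. Tfrc had 0.41 in AtrxdE2 and Cox17 0.23 in AtrxdE2+TMPyP4. Of 15 measured TGF-beta genes, which include receptors known to bind decorin, 11 were above 0 in AtrxdE2 (median 0.12). In AtrxdE2+TMPyP4 8 were (median 0.047), and the same shares of all genes apply. Ccn2 (Ctgf on the array) had -0.33 in AtrxdE2 and 0.42 in AtrxdE2+TMPyP4, and Ltbp4 had 0.25 and -0.36. Smad2 had -0.32 and Egfr 0.26 in AtrxdE2, and Smad4 had -0.24 and Tgfbr3 0.19 in AtrxdE2+TMPyP4.

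**Figure D4:**
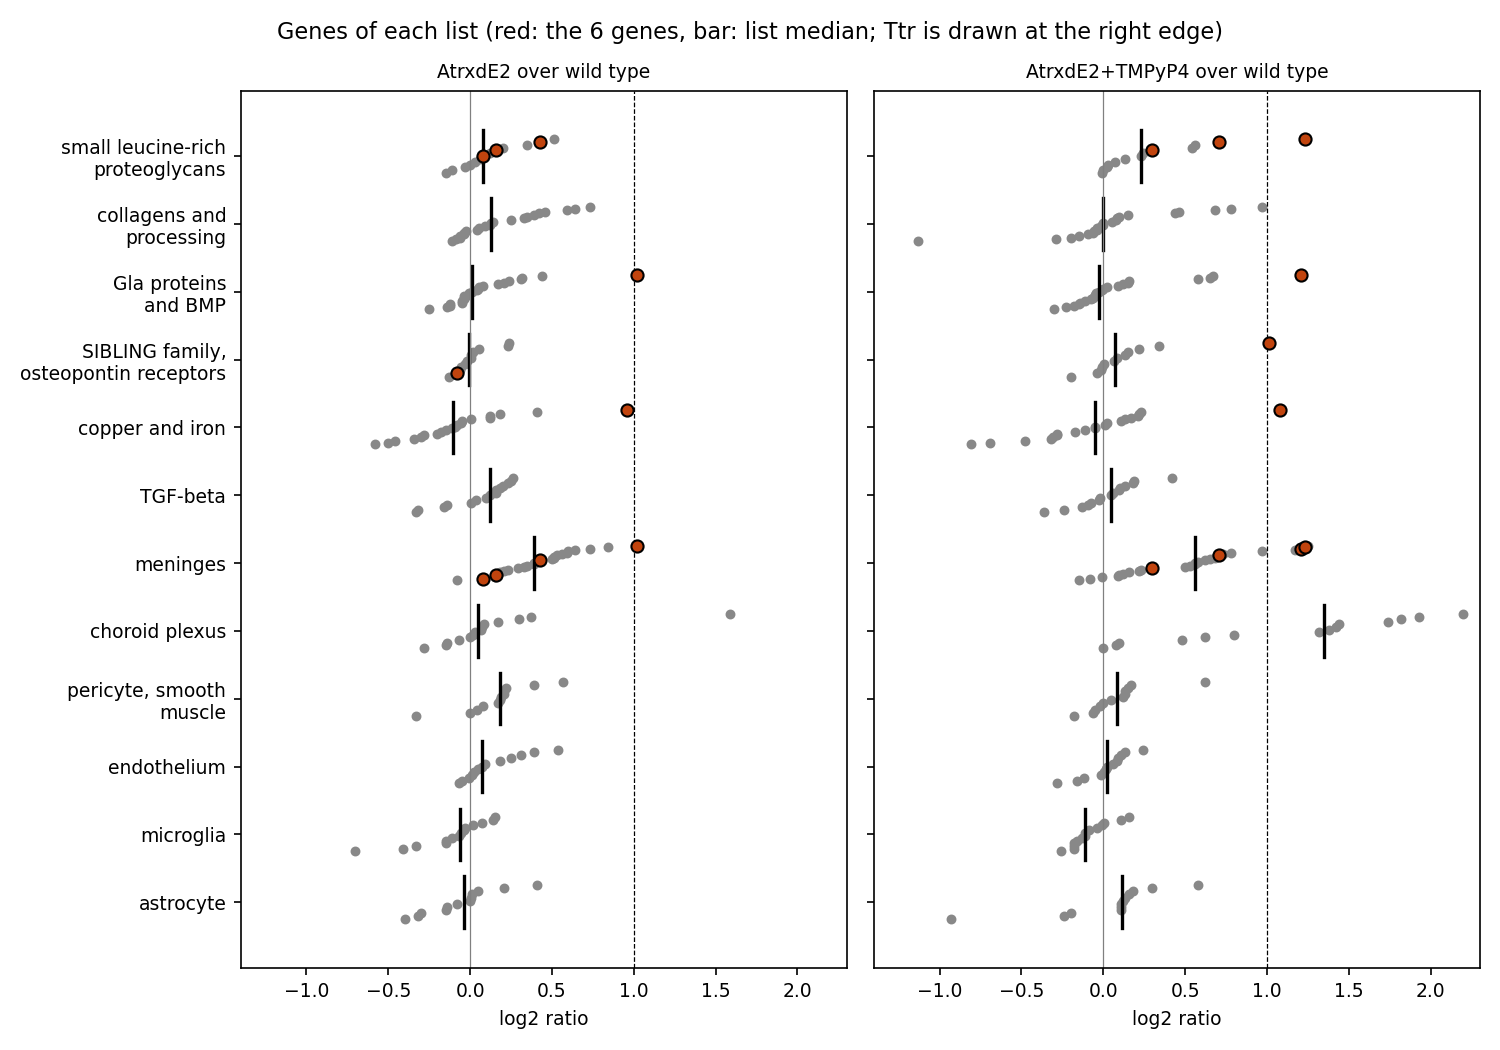
Normalized log2 ratio of each measured gene (points) of 12 lists, in AtrxdE2 over wild type and AtrxdE2+TMPyP4 over wild type, with the 6 genes in red, list medians as bars and the 2-fold line dashed. Mgp, Cp and Spp1 are the highest of their pathway lists in the treated pool (1.21, 1.08 and 1.01). In the meninges list the highest is Mgp in AtrxdE2 (1.02) and Crabp2 in the treated pool (1.25). The 6 genes were chosen on these ratios, so nothing is read from their places.

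Marker genes of cell types were compared in the same way, in lists also drawn up with earlier results known. Mgp, Ogn, Dcn and Lum belong to the list of meningeal fibroblast markers, and of its other genes 23 of 25 were measured. In AtrxdE2 22 of these 23 were above 0, with a median of 0.39, and in AtrxdE2+TMPyP4 20 of 23, with a median of 0.56. Of all measured genes 49.3% and 52.8% were above 0. Their summed signal was 5042.4 in AtrxdE2, against 2166.7 in wild type, and 6432.1 in AtrxdE2+TMPyP4, against 1766.2 in wild type. Crabp2, a retinoic acid-binding protein gene, had 1.25 and Nupr1 1.17 in AtrxdE2+TMPyP4, and the fibronectin gene Fn1 had 0.84 in AtrxdE2. Between treated and untreated AtrxdE2 the median of these 23 genes was 0.042, with 12 of 23 above 0. That is near the share of all measured genes above 0 in this comparison, 52.8%. In a tissue sample, more cells of a type and more RNA per cell cannot be told apart.

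Choroid plexus markers were high in the treated pool, where Mgp, Ogn, Spp1 and Cp were also high. Of 20 listed, 17 are on the array and 14 were measured, 8 of them at least 2-fold higher in AtrxdE2+TMPyP4, where 0.162% of all named genes were, with a median of 1.35. In AtrxdE2, where 0.0221% of all named genes were at least 2-fold higher, this held for 1 of 14 (Ttr, at 1.59, with a signal of 352.6 in AtrxdE2, against 44.3 in wild type). There 10 of 14 were above 0, as 49.3% of all named genes were, among them Msx1 with 0.37 and Kl with 0.30. The median was 0.047. Their summed signal was 4937.8 in AtrxdE2, against 2878.6 in wild type, and 75276.3 in AtrxdE2+TMPyP4, against 2548.4 in wild type. Without Ttr the sum was 4585.2 in AtrxdE2, against 2834.4 in wild type, and 14484.8 in AtrxdE2+TMPyP4, against 2329.0 in wild type. Cldn2, a defining junction gene of this epithelium, was above background in the treated pool only, with a signal of 108.0, and Kcne2 had 6.94 in AtrxdE2, against 9.16 in wild type, and 191.2 in AtrxdE2+TMPyP4, against 7.74 in wild type. Between treated and untreated AtrxdE2 the median of the 14 markers was 1.31. In that comparison Spp1 had 1.09, Ogn 0.80, Dcn 0.55, Lum 0.22, Mgp 0.18 and Cp 0.12. Whether RNA of meninges or choroid plexus contributed to the values of the 6 genes was not tested.

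Of the other cell markers, those of oligodendrocytes lay furthest from wild type by the normalized median, on the lower side in both pools. This order depended on the processing. In the authors' deposited table the AtrxdE2 median was 1.06 for blood genes and -0.6 for oligodendrocyte genes. With median centring the AtrxdE2+TMPyP4 median was -0.13 for oligodendrocyte genes and 0.45 for neuronal genes. All 12 pericyte and smooth muscle genes were measured, with a median of 0.19 in AtrxdE2 and 0.084 in AtrxdE2+TMPyP4, and 13 of 14 endothelial genes, with 0.073 and 0.022. Microglial genes, all 14 measured, had medians of -0.061 and -0.11, and astrocyte genes, all 12 measured, -0.038 and 0.11. None of these had a member at least 2-fold higher in either pool. The 4 measured blood genes had medians of 0.33 and -0.12, the 11 oligodendrocyte genes -0.50 and -0.40, the 4 CA1 pyramidal genes 0.062 and -0.29, and the 9 neuronal genes -0.064 and 0.011. Of the neuronal genes, Camk2a had a signal of 5312.0 in AtrxdE2, against 2847.9 in wild type, and of 2617.6 in AtrxdE2+TMPyP4, against 1117.1 in wild type. The normalized log2 ratios of Camk2a were 0.3 and 0.011. Atrx itself had a signal of 19.1 in AtrxdE2, against 47.4 in wild type, and of 71.5 in AtrxdE2+TMPyP4, against 54.6 in wild type. Its log2 ratios were -0.68 in AtrxdE2 and -0.36 in AtrxdE2+TMPyP4, and in the authors' deposited table they were -1.96 and -0.78. The place of its probe relative to the altered exon was not analysed here.

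Each of the 6 genes was read from 1 spot, so values near it on the slide were compared. Ogn, Dcn, Lum and Spp1 lie in row 1 of their blocks, and the 2225 measured probes of that row had medians of 0.0091 in AtrxdE2 and 0.0075 in AtrxdE2+TMPyP4. Block medians around the members ranged from -0.13 (Dcn) to 0.061 (Spp1) in AtrxdE2 and from -0.02 (Lum) to 0.027 (Mgp and Cp) in AtrxdE2+TMPyP4. The measured spots within 2 places of Spp1 had a median of -0.11 and a highest value of 0.26 on the treated array, and those around Ogn -0.0022 and 0.38. Around Mgp the highest neighbouring spot had 0.56 in AtrxdE2 and 0.97 in AtrxdE2+TMPyP4, and around Cp 0.038 and 0.87, so on the treated array single spots near both came close to the ratios of these members. Around Dcn and Lum the highest were 0.48 and 0.27 in AtrxdE2+TMPyP4.

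The genes whose pair of log2 ratios was most like that of each member were found by distance over the 2 arrays. Cp and Mgp were each other's nearest, 0.15 apart, and both were followed by Esf1 (2610101J03Rik on the array, 0.90 in AtrxdE2 and 0.83 in AtrxdE2+TMPyP4). The third was Crabp2 for Mgp and Col1a2 for Cp. Ogn was nearest to Nupr1 (0.39 and 1.17), then Ddit4l (0.34 and 1.14) and Crabp2 (0.60 and 1.25). Spp1 was nearest to Emb, an immunoglobulin superfamily gene (-0.07 and 1.07), then Rdm1 (-0.20 and 1.04) and Lmbrd2 (0.041 and 0.98). Dcn had Emx1, Igfbp2 and Cav2 within 0.037. For Lum the nearest genes were Rp9, Hspa4l and Ephb1, all within 0.0076, which reflects the density of genes near 0. The mean pair of the 6 genes was 0.43 in AtrxdE2 and 0.92 in AtrxdE2+TMPyP4, and the 10 genes nearest to it were Aga, Gpx8, Adcyap1, Myoc, Msx1, Stard8, Nefh, Prg4, Emp3 and Pcolce, at distances of 0.03 to 0.17. With 2 arrays such likeness rests on 2 values per gene.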

How the data were processed

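The authors deposited, per the file headers, a merged intensity (spot median, several scanner gains) and a local background intensity for every spot in both channels. The deposited value table gives log2 ratios, mutant pool over wild type, normalized by the authors per the labels in a way not described there. From the intensities, the trimmed mean of 2736 blank spots (share of 0.05 off each end) served as background for normexp (limma 3.58.1, R 4.3.3, offset 50), followed by loess within each array. The steps were also run on simulated data, whose outcome is not reported here and on which no value above rests. Symbols came from the platform annotation, updated through RefSeq (GRCm38.p6). With 1 array per group no test was run. The 6 genes, the gene lists and the processing were chosen with earlier results of these data known. Named genes are the 6 members, Atrx, the 2 highest and 2 lowest of each pathway list, and the genes most alike over both arrays. Further genes, namely Fmod, Omd, Bgn, Heph, Slc40a1, Cd44, chromosomal neighbours and single cell markers, were picked after their values were seen. Alternatives changed the background, offset, normalization, filter or wild-type value.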

Additional observations from a re-analysis of the deposited data

Results flagged for a closer look

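Spp1 had a log2 ratio over wild type above 0 in AtrxdE2+TMPyP4 (1.01) and below 0 in AtrxdE2 (-0.081), a difference of 1.09. With 1 array each this difference was not tested, and the AtrxdE2 value lies within the spread of genes of like signal.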

How the results depend on the processing

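No paired analysis was possible because each group is 1 pool on 1 array, and no replicate could be left out. The number of the 6 genes at least 2-fold higher in AtrxdE2 than in wild type was 1. It became 3 with plain subtraction of the blank level and in the authors' value table, 2 with an offset of 10 and 0 with the local background. The number in AtrxdE2+TMPyP4 over wild type was 4, and became 1 with the local background. For AtrxdE2+TMPyP4 over AtrxdE2 it was 1, and 2 (Ogn and Spp1) with plain subtraction, an offset of 10 and the authors' value table. The share of all probes passing was not computed for the offset of 10 or the local background. Whether those counts moved more than all probes did is therefore not known. The other 13 recomputed counts stayed within 1.5 times. Of 132 recomputed log2 ratios of single members, 98 moved by less than 0.27, the SD between the wild-type channels, and 34 by more, and none that was at least 2-fold changed sign. Below 2-fold, signs changed for Lum and Spp1 in AtrxdE2 and for Mgp and Cp between treated and untreated AtrxdE2. The causes were not tested beyond the construction of each setting: a smaller offset leaves dim ratios larger. Medians of the collagen, Gla and BMP, osteopontin and copper and iron lists in AtrxdE2+TMPyP4 lay near 0 and changed sign in some settings. With median centring in place of loess they were -0.25, 0.22, -0.15 and 0.17, against -0.00018, -0.024, 0.073 and -0.052 with the members included. The proteoglycan median, members included, was 0.082 in AtrxdE2 and -0.0093 with median centring. Some cell marker medians changed sign too. In AtrxdE2+TMPyP4 those of microglia and CA1 were 0.20 and 0.011 with median centring, against -0.11 and -0.29. The number of arrays limits the precision, and the wild-type signals of Ogn, Lum and Omd were dim.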
